A study of Mus musculus with 12 samples.

Results

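The genes described here are 40 genes of DNA replication, mitosis and cell cycle control, listed by symbol and read from a count table of 54232 genes of mouse liver. All 40 symbols matched a row, and all 40 passed the filter on low counts, which asks for over 2 reads in no fewer than 6 libraries, as did 17509 genes in all. They serve as a readout of cell turnover in the liver after loss of *Marchf6*, which encodes a ubiquitin ligase of the endoplasmic reticulum. RNA was sequenced from the livers of 6 WT and 6 LKO mice, with 1 library per mouse. All were C57Bl/6J male littermates on chow, 10 weeks old and fasted for 4 h before the liver was collected. Both groups carry the floxed *Marchf6* allele on both chromosomes, and the LKO mice also carry Cre under the albumin promoter, which deletes 1 exon in hepatocytes. Kupffer, endothelial, stellate and blood cells of the LKO livers therefore keep an intact gene. The shallowest library held 14860414 counts and the deepest 22111926. The median was 15884818 in WT and 17893575 in LKO, and an exact permutation test of the difference in means gave a two-sided p of 0.136.

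*Marchf6* is on chromosome 15, minus strand. Its level in counts per 1000000 counts of the library, scaled by TMM (normalized CPM, the unit used throughout), was at lowest 226, at the median 244 and at highest 247 in WT livers. The same values in LKO livers were 204, 227 and 249. The groups overlapped, with a log2 fold change of -0.09 ± 0.06 (SE) and an adjusted p of 0.585 in edgeR. The count covers the whole gene, of which 1 exon is deleted, so it does not check the labels. In liver lysates of the same mice, the paper reports more SQLE and PLIN2 protein, which it names as MARCHF6 targets, in the LKO group. The tissue matched its label, since all 10 hepatocyte markers were detected and albumin (*Alb*) reached 64628 to 88637 CPM over the 12 livers.

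Cells enter division when D-type and E-type cyclins drive them past the G1/S boundary, after which E2F factors turn on the genes that license replication origins and supply nucleotides. FOXM1 and related complexes then turn on the cyclins, kinases and spindle proteins of G2 and mitosis, while p21, p27 and p18 hold the kinases in check. Adult hepatocytes are mostly quiescent and re-enter the cycle after injury or partial hepatectomy, and many of them are polyploid. The liver RNA is a bulk measure, in which fewer cells of a type and less RNA per cell cannot be told apart.

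None of the 40 genes passed an adjusted p of 0.05 in edgeR, against 75 of the 17509 genes tested (0.428%). DESeq2 called 1 of the 40, *Mcm4*, beside 351 of all genes (2.00%), and limma voom called 0, beside 85 of all genes (0.485%). At an unadjusted p under 0.05, 1 of the 40 was higher in LKO livers and 1 was lower, beside 6.33% of all genes higher and 5.36% lower. With a liver left out, other members also came under that threshold: *Mcm5* and *Rrm2* without WT3, *E2f1* without WT2, *Ccna2* without WT4 or LKO1, and *Cdc6* without LKO3. The groups did not overlap for 1 of the 40 genes, beside 1.30% of all genes tested. The median log2 fold change of the 40 genes was -0.04, with 17 positive and 23 negative values, while the median over all genes tested was 0.00. The 95% interval of the fold change included 0 for 38 of the 40 genes. For 30 of the 40 the whole interval lay within a 2-fold change in either direction, and for the other 10 it did not. Of those 10, 5 had under 20 reads on average over the livers and 5 had more.

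**Figure D1:**
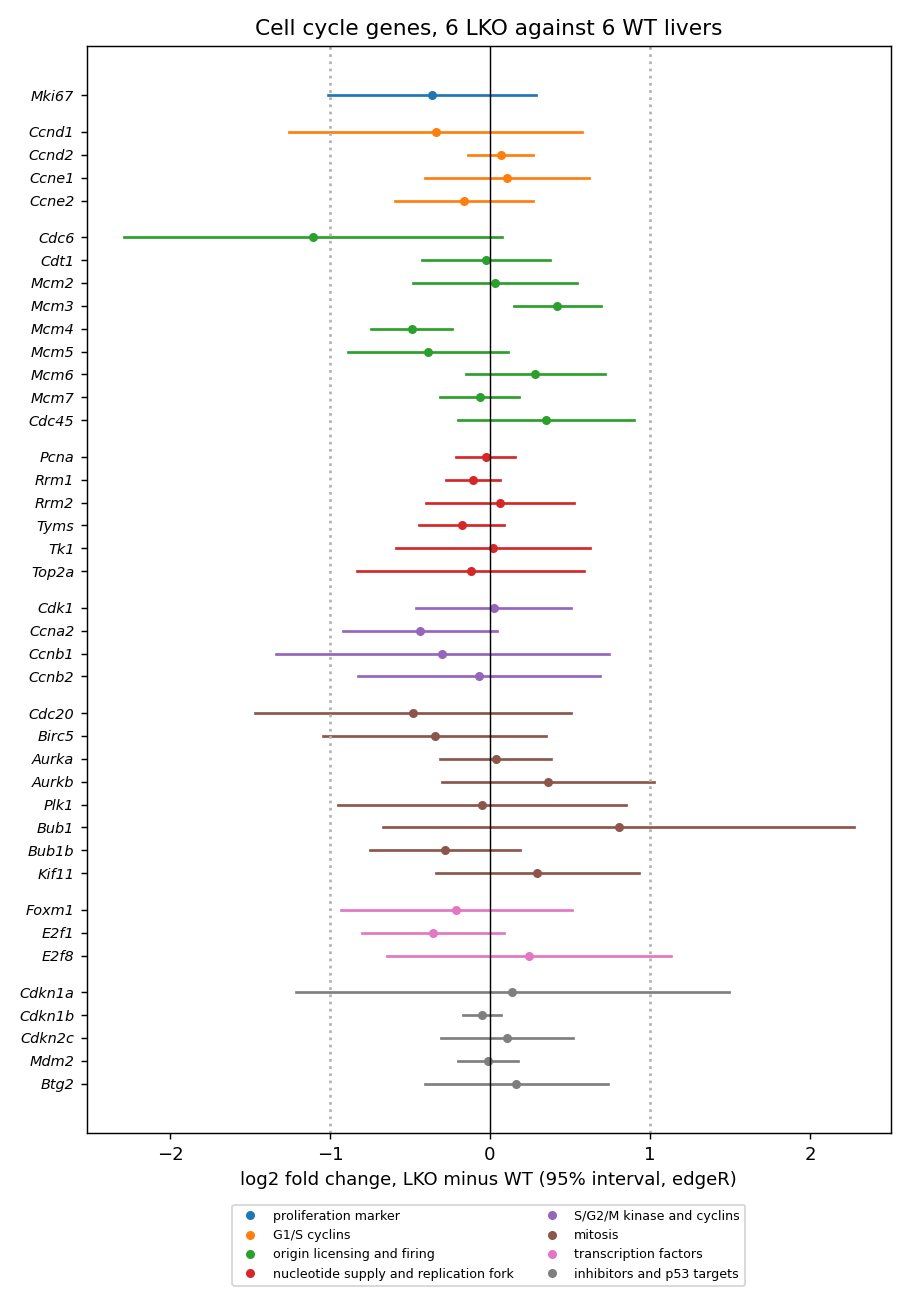
Log2 fold change of each of the 40 genes, LKO minus WT, with its 95% interval from edgeR, coloured by role. Dotted lines mark a 2-fold change. The intervals of 38 genes cross 0, and those of *Mcm3* and *Mcm4* lie on opposite sides of it.

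*Mki67* encodes the Ki-67 protein that coats mitotic chromosomes and is lost from resting cells. It was at lowest 1.04, at the median 1.99 and at highest 4.35 CPM in WT livers, from 15 to 83 reads. The LKO livers gave 1.31, 1.48 and 2.32 CPM, from 20 to 54 reads. The groups overlapped, and WT5 stood above all other livers. The fitted log2 fold change was -0.36 ± 0.30 (SE, n = 6 per group), with an adjusted p of 0.695 in edgeR. Without WT5 the log2 fold change was -0.00, and without WT1 it was -0.50. Per kb of exon, its mean level was above that of 14.8% of the genes tested.

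Among the G1/S cyclins, *Ccnd1* encodes cyclin D1, the cyclin that couples growth signals to the cycle in hepatocytes. It was at lowest 7.40, at the median 14.4 and at highest 50.8 CPM in WT livers. In LKO livers the values were 9.41, 12.6 and 36.2 CPM. A single liver in each group stood above the others, WT2 with 863 reads and LKO1 with 778 reads, and the remaining values overlapped. Its log2 fold change was -0.34 ± 0.43 (SE), with an adjusted p of 0.816 in edgeR, and it was -0.77 without LKO1 and 0.18 without WT2. *Ccne2*, a cyclin E that activates CDK2 at the start of S phase, had the lowest p of this role. Its values were 1.17, 1.93 and 2.57 CPM at lowest, median and highest in WT livers, and 1.21, 1.77 and 2.02 CPM in LKO livers. The groups overlapped, and the log2 fold change was -0.16 ± 0.20 (SE, adjusted p = 0.814 in edgeR), with -0.26 without WT1, -0.06 without WT6, -0.07 without LKO1 and -0.09 without WT5. *Ccnd2* and *Ccne1* had log2 fold changes of 0.07 and 0.11, and with a liver left out these ran from 0.02 (without LKO1) to 0.11 (without LKO6) and from -0.02 (without LKO6) to 0.22 (without LKO2). *Ccnd1* shares exon bases with a gene on the opposite strand, as do *Ccnd2*, *Ccne2*, *Mcm7*, *Cdc45*, *Tk1*, *Ccna2*, *Cdc20*, *Plk1*, *E2f8* and *Cdkn1a*, and *Mcm7*, *Top2a* and *Foxm1* share some with a gene on their own strand. The strand setting of the counting is not given in the sources used here, so the values of all these genes are uncertain to that extent.

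The origin licensing genes held both members with an unadjusted p under 0.05. *Mcm4* encodes a subunit of the MCM2-7 helicase that is loaded at replication origins, and its gene runs on chromosome 16, minus strand, from 15623897 to 15637400 (GRCm38). In the 6 WT livers it had 76, 88, 77, 97, 105 and 95 reads, and in the 6 LKO livers 79, 47, 65, 81, 107 and 73 reads. In normalized CPM the lowest, median and highest values were 4.89, 5.37 and 6.53 in WT and 3.15, 3.85 and 4.61 in LKO livers. Every WT liver lay above every LKO liver on this scale, and *Mcm4* was the 1 member of which this held. *Mcm4* had a log2 fold change of -0.49 ± 0.12 (SE), lower in 6 of 6 LKO livers than the WT mean, with an adjusted p of 0.092 in edgeR. Over the alternatives its adjusted p ran from 0.0186 with DESeq2 to 0.215 without WT4, and the log2 fold change from -0.54 to -0.43.

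*Mcm3*, another subunit of the same ring, is named after its values were seen. It had 32, 54, 44, 35, 48 and 35 reads in WT livers and 70, 54, 57, 72, 74 and 58 reads in LKO livers. In normalized CPM the lowest, median and highest were 2.21, 2.43 and 3.18 in WT and 3.14, 3.27 and 4.10 in LKO livers. The ranges met at WT2, whose value of 3.18 CPM lay above the lowest LKO liver, and 5 of 6 LKO livers lay above every WT liver. *Mcm3* had a log2 fold change of 0.42 ± 0.13 (SE), with an adjusted p of 0.193 in edgeR, and under the alternatives it stayed between 0.37 and 0.49.

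The ratio of *Mcm3* to *Mcm4* reads within a liver was computed because of these values and carries no test. It was 0.361 to 0.614 in WT livers and 0.692 to 1.15 in LKO livers, and the groups did not overlap. It sets the MCM gene with the highest log2 fold change against the one with the lowest, so its separation is not independent of how the pair was picked. Neither gene passed the test over all genes in edgeR. *Prkdc*, the neighbour of *Mcm4* that is transcribed from the opposite strand, had a log2 fold change of -0.21 and an adjusted p of 0.505 in edgeR. The other MCM subunits, *Mcm2*, *Mcm5*, *Mcm6* and *Mcm7*, had log2 fold changes of 0.03, -0.39, 0.28 and -0.06, none with an unadjusted p under 0.05, though *Mcm5* had one without WT3. Without LKO1 the value of *Mcm6* was 0.05, and without WT5 it was 0.37. The sign changed for *Mcm2* without WT1, WT3, WT4 or LKO1 and for *Mcm7* without WT1.

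**Figure D2:**
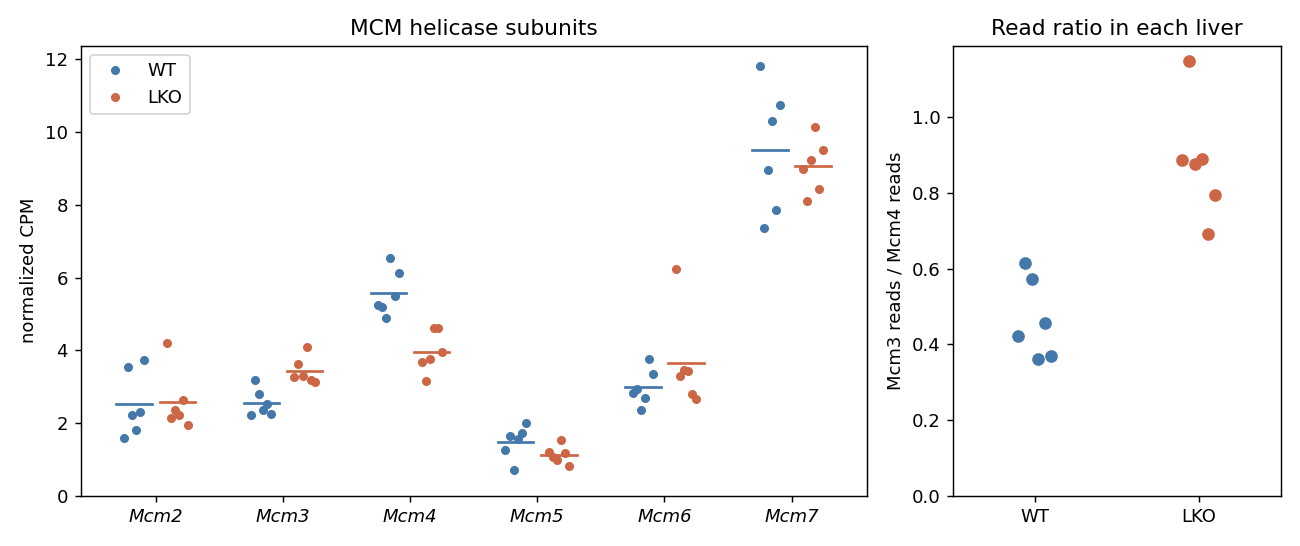
Left, normalized CPM of the 6 MCM helicase genes in each of 6 WT and 6 LKO livers, with horizontal lines at the group means. Right, the ratio of *Mcm3* to *Mcm4* reads in each liver, 0.361 to 0.614 in WT and 0.692 to 1.15 in LKO livers.

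*Mcm7* had the highest level per kb of this role. Its normalized CPM was 7.36, 9.63 and 11.8 at lowest, median and highest in WT livers and 8.11, 9.11 and 10.1 in LKO livers. The LKO range lay inside the WT range (log2 fold change -0.06 ± 0.12, SE, adjusted p = 0.882 in edgeR), and the gene shares exon bases with *Ap4m1* and *Cops6* on the opposite strand. The licensing factor *Cdt1* and the helicase factor *Cdc45* had log2 fold changes of -0.02 and 0.35. That of *Cdt1* ran from -0.11 without WT1 to 0.11 without WT6, and was also positive without WT5, LKO1 or LKO2. That of *Cdc45* ran from 0.15 without LKO5 to 0.45 without LKO1. *Cdc6*, which loads the helicase, was at 2 to 5 reads in WT and 0 to 4 reads in LKO livers. Its log2 fold change of -1.11 had a 95% interval from -2.29 to 0.07. Without LKO3 the log2 fold change was -1.50, with an unadjusted p under 0.05, as in limma voom with all livers. Without LKO6 it was -0.86.

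The genes of nucleotide supply and of the replication fork had 2 positive and 4 negative log2 fold changes, and none passed the test. *Pcna*, the sliding clamp of the DNA polymerases, had the highest level per kb of this role. Its lowest, median and highest values were 10.9, 13.2 and 15.1 CPM in WT livers and 12.0, 13.1 and 14.2 CPM in LKO livers. The LKO livers lay within the WT range, and the log2 fold change was -0.03 ± 0.09 (SE, adjusted p = 0.946 in edgeR). It ran from -0.08 without WT2 to 0.02 without WT4, and was also positive without WT3. *Tyms*, which makes thymidylate, had the lowest p of this role. Its values were 4.30, 5.13 and 6.13 CPM in WT livers and 3.67, 4.85 and 5.56 CPM in LKO livers, overlapping over most of their range. *Tyms* had a log2 fold change of -0.18 ± 0.12 (SE, adjusted p = 0.622 in edgeR), which was -0.12 without LKO1 and -0.23 without WT2.

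*Top2a* encodes the topoisomerase that untangles sister chromatids, and is a common marker of dividing cells. It was at lowest 0.553, at the median 1.12 and at highest 1.99 CPM in WT livers, from 8 to 38 reads. In LKO livers it was 0.469, 1.10 and 2.14 CPM, from 7 to 46 reads. The ranges coincided, with LKO1 the highest and LKO2 the lowest of all 12 livers. The log2 fold change was -0.12 ± 0.33 (SE, adjusted p = 0.934 in edgeR). It was -0.40 without LKO1, 0.07 without WT5 and 0.03 without LKO2. The ribonucleotide reductase subunits *Rrm1* and *Rrm2* and the thymidine kinase *Tk1* had log2 fold changes of -0.11, 0.06 and 0.02. Without WT3 that of *Rrm2* was 0.33, with an unadjusted p under 0.05, and without WT6 it was -0.05. That of *Tk1* ran from -0.14 without WT2 to 0.18 without LKO1, and that of *Rrm1* from -0.13 without WT2 to -0.06 without LKO1. *Tk1* varied 3.65-fold among WT livers, and it shares exon bases with *Afmid* on the opposite strand.

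*Cdk1*, the kinase that starts mitosis, was at lowest 0.673, at the median 1.30 and at highest 1.59 CPM in WT livers, from 10 to 30 reads. The LKO livers gave 0.854, 1.23 and 1.72 CPM, from 15 to 40 reads. The groups overlapped almost entirely, and the log2 fold change was 0.02 ± 0.23 (SE, adjusted p = 0.982 in edgeR), from -0.10 without WT4 to 0.11 without LKO4. *Ccna2*, the cyclin A of S and G2 phase, was at 0.740, 1.31 and 1.73 CPM at lowest, median and highest in WT livers and at 0.577, 0.950 and 1.16 CPM in LKO livers. Of the WT livers, 4 lay above every LKO liver and WT4 lay among the lowest. The log2 fold change was -0.44 ± 0.22 (SE, adjusted p = 0.476 in edgeR), and the gene shares exon bases with *Exosc9* on the opposite strand. It was -0.55 without WT4 and -0.52 without LKO1, each with an unadjusted p under 0.05, and -0.32 without WT5. *Ccnb2*, a cyclin B of mitosis, had the highest level per kb of this role, with 4 to 19 reads in WT and 5 to 19 in LKO livers. Its CPM was 0.269, 0.493 and 0.995 at lowest, median and highest in WT livers, and 0.335, 0.457 and 1.03 in LKO livers. These ranges overlapped, with LKO6 apart from the other LKO livers, and the log2 fold change was -0.07 ± 0.35 (SE, adjusted p = 0.968 in edgeR), with -0.35 without LKO6 and 0.20 without WT5. *Ccnb1* had 2 to 4 reads in WT and 0 to 6 reads in LKO livers, and the groups overlapped. The log2 fold change of *Ccnb1* was -0.30 ± 0.49 (SE, adjusted p = 0.866 in edgeR), so a change in either direction was not excluded.

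Of the 8 mitosis genes, 4 had a positive and 4 a negative log2 fold change. *Aurka*, the kinase of the spindle poles, had the highest level per kb of them. Its CPM was 1.84, 2.72 and 3.30 at lowest, median and highest in WT livers, and 2.38, 2.66 and 3.02 in LKO livers. The LKO livers lay within the WT range (log2 fold change 0.04 ± 0.16, SE, adjusted p = 0.962 in edgeR), which ran from -0.05 without WT3 to 0.11 without WT4. *Bub1*, a kinase of the spindle checkpoint, had the lowest p of this role at 0 to 4 reads in WT and 1 to 5 reads in LKO livers. Its CPM was 0.00, 0.0345 and 0.209 at lowest, median and highest in WT and 0.0541, 0.171 and 0.233 in LKO livers. These counts overlapped, and the log2 fold change of 0.81 had a 95% interval from -0.67 to 2.28. *Cdc20*, *Birc5*, *Aurkb*, *Plk1*, *Bub1b* and *Kif11* had log2 fold changes from -0.48 to 0.36. The lowest, that of *Cdc20*, was -0.85 without LKO1 and -0.04 without WT5. *Cdc20* was at 0.127 to 1.26 CPM over the livers, and *Elovl1*, with which it shares exon bases on the opposite strand, at 34.0 to 49.2 CPM.

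Summed over *Mki67*, the 4 genes of the S/G2/M kinase and cyclins and the 8 mitosis genes, the reads came to between 158 and 359 in a WT liver and between 169 and 301 in an LKO liver. In normalized CPM the sums were 12.8 ± 3.27 in the WT group and 11.8 ± 0.875 in the LKO group (mean ± SD, n = 6 each). The highest sum was that of WT5, at 18.8 CPM, in which 12 of these 13 genes were above their median over the 12 livers. The remaining WT livers were at 10.1 to 13.5 CPM, and the LKO livers at 10.5 to 12.9 CPM.

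Of the transcription factors, *E2f1*, an activator of replication genes, was at 2.24, 3.20 and 5.08 CPM at lowest, median and highest in WT livers and at 1.91, 2.39 and 3.42 CPM in LKO livers. The groups overlapped, and the log2 fold change was -0.36 ± 0.21 (SE, adjusted p = 0.540 in edgeR). It was -0.18 without WT5 and -0.45 without LKO4, and its unadjusted p was under 0.05 without WT2. *E2f8*, an atypical E2F that represses cell cycle genes and is known for its part in hepatocyte polyploidy, had the highest level per kb of them. It was at lowest 5.34, at the median 14.8 and at highest 26.5 CPM in WT livers and 7.12, 16.4 and 33.8 CPM in LKO livers. The livers within each group differed by several fold, with WT6 and LKO5 at the top, and the groups overlapped (log2 fold change 0.25 ± 0.42, SE, adjusted p = 0.870 in edgeR). Without LKO5 the log2 fold change was -0.05, and without WT6 it was 0.49. *Gm2788* shares exon bases with *E2f8* on the opposite strand and had more reads than it in 12 of 12 livers. *Foxm1*, at 3 to 11 reads per liver, had a log2 fold change of -0.21, from -0.36 without LKO6 to -0.06 without LKO4.

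The inhibitors and p53 targets included the 4 genes of highest level per kb among the 40. *Cdkn1a* encodes p21, a p53 target that halts the cycle. It was at lowest 10.0, at the median 18.7 and at highest 52.1 CPM in WT livers, and at 6.81, 12.0 and 98.0 CPM in LKO livers. The highest value was that of LKO1 with 2108 reads, followed by WT2 with 885 and WT1 with 610 reads, and the groups overlapped. The log2 fold change was 0.14 ± 0.63 (SE, adjusted p = 0.962 in edgeR), and without LKO1 it was -0.90. Without WT2 it was 0.48, without WT4, WT5 or WT6 it was -0.02, and limma voom gave -0.19. *Cdkn1b*, which encodes p27, had the lowest p of this role and the narrowest interval. It was at 31.1, 33.8 and 36.2 CPM at lowest, median and highest in WT livers and at 31.8, 32.6 and 35.0 CPM in LKO livers. The LKO range lay inside the WT range, and the 95% interval of the log2 fold change ran from -0.17 to 0.07. *Btg2*, an antiproliferative gene induced by p53 and by growth signals, had the highest level per kb of all 40 genes. Its CPM was 12.4, 19.997 and 34.1 at lowest, median and highest in WT livers and 12.5, 20.9 and 43.0 in LKO livers, with LKO1 again the highest. The log2 fold change was 0.17 ± 0.27 (SE, adjusted p = 0.864 in edgeR), and it was -0.08 without LKO1 and 0.34 without WT1. *Mdm2*, the ligase that degrades p53, and *Cdkn2c*, which encodes p18, had log2 fold changes of -0.01 and 0.11. With a liver left out, these ran from -0.08 (without LKO1) to 0.03 (without LKO6) and from -0.04 (without LKO3) to 0.23 (without WT6).

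**Figure D3:**
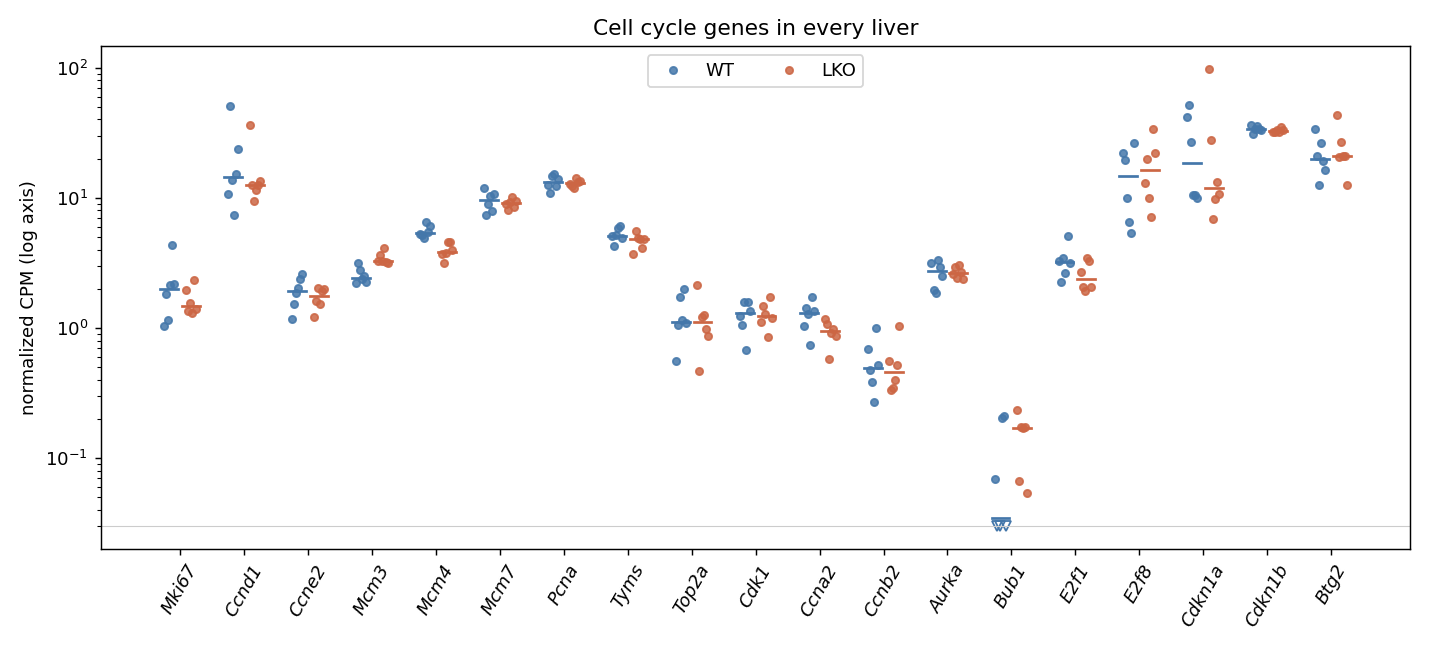
Normalized CPM (log axis) of 19 of the 40 genes in each of 6 WT and 6 LKO livers. Horizontal lines mark group medians, and open triangles mark livers with 0 reads. *Mcm4* is the gene whose groups do not overlap, and LKO1 is the highest liver for *Cdkn1a*.

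LKO1 stood apart from the other LKO livers in several of these genes. It was the highest of the 12 livers for 9 of the 40 genes, against 0 to 6 genes for the other livers. Its *Mcm6* level was 6.23 CPM, while the next highest LKO liver was at 3.46 CPM. Without LKO1 the count of members past an adjusted p of 0.05 in edgeR was 0 of 38 tested, and 3 had an unadjusted p under 0.05.

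Of the other genes of the same processes, 0 passed an adjusted p of 0.05 in edgeR, 0 in limma voom and 0 in DESeq2. Of 46 further replication genes tested, 0 were higher and 2 lower at an unadjusted p under 0.05, the threshold of all list counts here, which 6.33% of all genes passed as higher and 5.36% as lower, with a median log2 fold change of -0.04. With 1 liver left out, 1 (without WT1, LKO3 or LKO4) to 6 (without WT3) passed it. *Mcm10*, an origin factor, had the lowest p of them, at 79.4 to 141 CPM in WT and 47.7 to 90.0 CPM in LKO livers (log2 fold change -0.49 ± 0.16, SE, adjusted p = 0.228 in edgeR). Of its WT livers, 5 lay above every LKO liver. Of 59 further mitosis genes tested, 0 were higher and 3 lower, with a median of -0.04, and 1 (without LKO3) to 6 (without WT6 or LKO1) passed with a liver left out. *Espl1*, the protease that separates sister chromatids, was at 4 to 10 reads in WT and 1 to 7 reads in LKO livers (log2 fold change -1.45 ± 0.34, SE, adjusted p = 0.0854 in edgeR).

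Of 27 further G1/S control genes tested, 2 were higher and 0 lower at an unadjusted p under 0.05 (6.33% and 5.36% of all genes), with a median of 0.05, and 0 (without LKO6) to 4 (without WT6) passed with a liver left out. *Myc* had the lowest p of them, with 1.83, 4.43 and 8.17 CPM at lowest, median and highest in WT livers and 4.27, 6.34 and 23.0 CPM in LKO livers. Only 2 LKO livers lay above every WT liver (log2 fold change 1.09 ± 0.43, SE, adjusted p = 0.323 in edgeR). Without LKO6 the log2 fold change was 0.62, and without WT6 it was 1.35. A further list of 30 genes held p53 targets and *Trp53*, which encodes p53 itself. Of these 30, 4 were higher and 1 lower, with a median of -0.04, and 2 (without WT2) to 6 (without WT3) passed with a liver left out. *Pmaip1*, a p53 target that promotes apoptosis, was at 6 to 8 reads in WT and 9 to 26 reads in LKO livers, and its CPM did not overlap between the groups (log2 fold change 0.83 ± 0.24, SE, adjusted p = 0.168 in edgeR). Of 17 immediate early and growth factor genes tested, 1 was higher and 1 lower, with a median of -0.11, and 2 to 3 passed with a liver left out. *Ier3*, an immediate early gene, had the lowest p of them, at 4 to 10 reads in WT and 7 to 58 reads in LKO livers (log2 fold change 1.54 ± 0.46, SE, adjusted p = 0.182 in edgeR).

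Markers of the other cells of the liver, in which turnover also takes place, were read beside these genes. At an adjusted p of 0.05, edgeR called 0 of the 67 markers tested and limma voom 0. Without LKO4, edgeR called 1, *Lyve1*, and with the replicate number as a block it called 1, *S100a8*. DESeq2 called 7, beside its 2.00% of all genes, of which *F9* of hepatocytes was lower and *Clec4f*, *Vsig4*, *Cd5l*, *S100a9* and *Lyve1* were higher. The remaining one, *S100a8*, passed the filter on low counts through the LKO livers alone, so it had to differ, and its calls are not read as a result. With no filter its adjusted p was 0.0292 in edgeR, and with the replicate number as a block 0.00984, on at most 2 reads in any WT liver. In the lists below, a marker is counted as higher or lower at an unadjusted p under 0.05 in edgeR, which 6.33% of all genes passed as higher and 5.36% as lower, and counts with a liver left out are of the same kind. Of 10 Kupffer cell markers, all 10 had a positive log2 fold change and 9 were higher (6 without WT1, LKO1 or LKO3), with a median of 0.38. Their summed level was 140 to 190 CPM in WT and 170 to 294 CPM in LKO livers, and *Clec4f*, the most abundant, was at 36.5 to 48.2 and 47.8 to 73.8 CPM. Of 8 B cell markers, all 8 had a positive log2 fold change and 5 were higher (2 without WT2), with sums of 1.52 to 2.93 CPM in WT and 2.60 to 4.56 CPM in LKO livers and *Cd22* the most abundant. Of 7 T and NK cell markers tested, 6 had a positive log2 fold change and 2 were higher (0 without LKO5), with sums of 0.898 to 2.98 and 1.84 to 3.35 CPM and *Lck* the most abundant. Of 9 neutrophil and myeloid precursor markers, 3 were tested, among them *S100a8*, at 0 to 2 reads in WT and 4 to 38 in LKO livers, which is left out of the count for the reason above. Of the other 2, *S100a9* was higher, at 1 to 5 reads in WT and 6 to 47 in LKO livers, without overlap between the groups in CPM. The list had sums of 0.337 to 3.12 and 1.14 to 4.65 CPM, with *S100a9* the most abundant, while *Ly6g*, *Mpo*, *Elane* and *Camp* had at most 3 reads in every liver. Without *Prtn3*, left out after its values were seen, the sums were 0.157 to 0.691 CPM in WT and 0.919 to 4.14 CPM in LKO livers. These sums still hold *S100a8*, and *Ngp* with 13 reads in LKO3, so their separation is not read as a result. *Prtn3* had a log2 fold change of -1.38 (adjusted p = 0.518 in edgeR) and 45 reads in WT2, which were 2.65 of the 3.12 CPM summed there. Without WT2 its log2 fold change was -0.06, and it was lower at an unadjusted p under 0.05 without WT3 or WT4. *S100a8* and *Prtn3* here, and *F9*, *Vsig4*, *Cd5l* and *Lyve1* above, were chosen after their values were seen.

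Of 7 erythroid precursor markers tested, 1 was higher and 1 lower (1 to 2 in all with a liver left out), with sums of 192 to 227 CPM in WT and 176 to 269 CPM in LKO livers and *Alas2* the most abundant, while *Rhag* had at most 3 reads in every liver. All 8 stellate cell markers had a positive log2 fold change and 1 was higher (2 without WT1 or LKO6), with sums of 154 to 237 and 180 to 278 CPM and *Dcn* the most abundant. Of 8 endothelial markers, 7 had a positive log2 fold change and 1 was higher, with sums of 153 to 203 and 164 to 207 CPM and *Stab2* the most abundant. Of 6 cholangiocyte markers, 4 had a positive log2 fold change and 1 was lower (0 without WT1 or WT4), with sums of 37.0 to 63.9 and 34.2 to 129 CPM, the highest in LKO1, and *Spp1* the most abundant. Of 10 hepatocyte markers, 9 had a negative log2 fold change and 3 were lower (1 without LKO5), with a median of -0.14, *Alb* the most abundant, and sums of 95680 to 118232 CPM in WT and 87354 to 97911 CPM in LKO livers. The part of these cell types in the values of the cell cycle genes was not tested.

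Promoter windows from RefSeq (GRCm38.p6) were held for 33 of the 40 genes, and the 250 bases upstream of the start were searched on both strands, with the first window listed for each gene. *Aurkb*, *Ccna2*, *Ccnd1*, *Ccnd2*, *Ccne2*, *Foxm1* and *Mcm4* had no window. A CCAAT box, spelled CCAAT or ATTGG, was in 24 of the 33, beside 34.5% of 27025 genes. An element spelled TTTGAA or TTCGAA on either strand, known from G2/M promoters, was in 11 of the 33, beside 17.4%. An E2F motif, spelled TTTCCCGC, TTTCGCGC, TTTGGCGC or TTTGCCGC on either strand, was in 5 of the 33, beside 1.91%. The motifs were searched separately, so matches can overlap, and a match is a description of the letters. Of the 11 genes of Ki-67, the S/G2/M kinase and cyclins and mitosis with a window, 10 held a CCAAT box. The upstream bases are shown for 3 members to let the motifs be seen, *Ccnb2* at chr9:70421555-70421804, *Mcm3* at chr1:20820313-20820562 and *Mcm6* at chr1:128359706-128359955, all on the minus strand, 5′ to 3′, with matches to any of the motifs in capitals.
Ccnb2: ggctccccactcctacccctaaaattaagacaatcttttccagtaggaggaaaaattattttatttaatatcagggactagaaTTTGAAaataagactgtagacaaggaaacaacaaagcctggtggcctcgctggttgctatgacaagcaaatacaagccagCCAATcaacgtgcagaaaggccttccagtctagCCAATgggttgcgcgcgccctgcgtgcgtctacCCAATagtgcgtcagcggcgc
Mcm3: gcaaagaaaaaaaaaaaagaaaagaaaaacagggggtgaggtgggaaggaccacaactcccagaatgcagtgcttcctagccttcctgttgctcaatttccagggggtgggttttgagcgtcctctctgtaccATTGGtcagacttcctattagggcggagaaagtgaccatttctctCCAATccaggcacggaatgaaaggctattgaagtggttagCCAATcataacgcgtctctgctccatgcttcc
Mcm6: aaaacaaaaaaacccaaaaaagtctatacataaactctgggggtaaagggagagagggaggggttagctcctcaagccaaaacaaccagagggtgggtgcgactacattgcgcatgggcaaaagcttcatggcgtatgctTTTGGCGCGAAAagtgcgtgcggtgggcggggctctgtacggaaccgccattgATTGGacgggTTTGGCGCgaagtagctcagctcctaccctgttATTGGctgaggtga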

How the data were processed

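The deposited table gives raw read counts for each Ensembl gene, made by the authors from KAPA mRNA libraries with no normalization. The submitters' processing notes name FastQC 0.11.15, Trimmomatic 0.36, HISAT2 2.1.0, HTSeq 0.6.1 and the build GRCm38.p6. Symbols, coordinates and exon lengths came from GENCODE M21, which held 54165 of the 54232 identifiers. A gene was kept if over 2 reads were counted in no fewer than 6 livers. The main test was edgeR 4.0.16 (quasi-likelihood, TMM scaling, R 4.3.3), fitted on genotype alone, and p-values were adjusted by Benjamini-Hochberg over the 17509 genes kept. The SE was the log2 fold change divided by the root of F, and 95% intervals used its t quantile. Exact permutation used scipy 1.17.1. The method was tested on simulated data. Alternatives were RLE and upper-quartile scaling, other filters, limma 3.58.1 voom, DESeq2 1.42.0, a replicate block, scaling without the 20 most abundant genes, and each liver left out. The members and lists were chosen with earlier results of these data known. Genes with values in every liver were *Mki67*, *Top2a*, *Cdk1*, *Ccna2*, *Ccnd1*, *Cdkn1a* and *E2f8*, members past an adjusted p of 0.05 or not overlapping, and in each role the member of lowest p and that of highest level per kb, and in other lists the gene of lowest p, and in marker lists the most abundant. *Mcm3*, the *Mcm3* to *Mcm4* ratio and the summed reads over 13 genes were chosen after the values were seen. Some marker genes are not reported here. The counts are of reads, which need not be independent molecules.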

Additional observations from a re-analysis of the deposited data

Results flagged for a closer look

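Among 112 groups of 6 livers, over the 40 cell cycle genes and the other genes named by rule, *Marchf6* and the total counts, 14 had a liver whose gap to its nearest neighbour was above the 95% critical value of Dixon's ratio (the gap divided by the group's range). For independent, normally distributed values chance flags about 1 in 20 groups, which would be 5.6 of these. The CPM of genes with few reads need not be so distributed, and the groups share the same livers. The 5.6 is therefore only a rough guide. Of the 14, 10 were in LKO1.

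LKO1 was far above the other LKO livers for *Ccnd1* (gap 0.849 of the range), *Mcm2* (0.697), *Mcm6* (0.772), *Cdc20* (0.813) and *Cdkn1a* (0.768). It was the lowest LKO liver for *Rrm1* (0.632). Among genes of the other lists it was far above for *Pmaip1* (0.757), *Ier3* (0.632), *S100a9* (0.637) and *Spp1* (0.804). Why LKO1 differs was not tested.

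WT5 was far above the other WT livers for *Mki67*, with a gap of 0.652 of the range. LKO6 was far above for *Ccnb2*, with a gap of 0.678 on 19 reads. WT1 was the highest WT liver for *Mcm10*, with a gap of 0.719, and the lowest for *Clec4f*, with a gap of 0.753.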

How the results depend on the processing

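Over 21 alternatives, the count of the 40 genes past an adjusted p of 0.05 was 0 in 20 and 1 with DESeq2. Not all 40 were tested in each. The number tested was 29 with 10 reads asked for in every liver, and 38 to 40 with 1 liver left out. The count at an unadjusted p under 0.05 ran from 2 to 4 over the fits with 1 liver left out, the 4 without WT3. The median log2 fold change of the members tested ran from -0.07 to -0.00 over all alternatives. Over all genes, 75 passed the adjusted threshold, 114 without a filter, 351 with DESeq2, and 38 to 132 with 1 liver left out, the lowest without WT5 and the highest without WT3. The 5 further lists together had 14 genes at an unadjusted p under 0.05, and 8 to 19 with 1 liver left out, the lowest without LKO3 and the highest without WT3 or WT6. Asking for 10 reads in every liver left no B cell, T and NK cell or neutrophil marker to test. The cause of these shifts was not tested, except that no filter tested 29280 genes. Signs changed in 54 of 1113 fits of single genes, over 19 genes, and in none of them did the gene have an unadjusted p under 0.05 with or without the change.

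With the replicate number as a replicate block, 97 genes passed over all genes and 0 of the 40, the further lists had 20 genes at an unadjusted p under 0.05, and *Cdkn1a* went from 0.14 to -0.19. The block also called 1 of the 67 markers, *S100a8*, at an adjusted p of 0.00984 in edgeR. This gene passed the filter through the LKO livers alone, so the call is not read as a result. Deviations of same-numbered livers correlated from -0.07 to 0.13, over 0.1 for 4 of 6 numbers, and 3 of 6 WT livers correlated best with the LKO liver of their own number. As this did not hold for all numbers, they are not taken as pairs, which does not exclude a pairing. Of the 40 genes, 10 had under 20 reads on average, and the interval lay within a 2-fold change for 5 of these and for 25 of the other 30.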
